A study of Mus musculus with 24 samples.

Results

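Chromosome 15 held 354 of the 14279 windows of 100 bp whose DNA 5-methylcytosine (5mC) signal was listed as differing between Tet2 knockout (KO) and wild-type (WT) mouse embryonic stem (mES) cells, and 227 of them were higher and 127 lower in the KO. In the genome 0.0086% of all windows were listed as higher and 0.0435% as lower. On the other chromosomes 84.7% of the listed windows were lower. The windows were selected on the read counts of the same 6 libraries described here: the authors' table keeps only windows past their threshold for Tet2 KO against WT, and every row on chromosome 15 was taken. The direction and size of each change were therefore fixed by the selection and are given as a description, with no test. Signal came from MeDIP-seq, the sequencing of DNA fragments captured with a 5mC antibody. Both genotypes are gift mES lines, cleared of feeder cells and cultured with LIF, CHIR99021 and PD0325901, and both were transfected with a control siRNA (siNC) using Lipofectamine RNAiMAX. Each genotype had 3 libraries, and 1 line stands for each genotype, so that genotype and line cannot be told apart. Parallel libraries carried siRNA against Nsun2 (siNsun2) in each genotype, and a separate experiment compared Pspc1 KO with WT cells, with input libraries; no input library or other control for copy number was analysed for the Tet2 KO comparison.

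TET2 is a dioxygenase that oxidizes 5mC to 5-hydroxymethylcytosine and further products, a step towards loss of the mark, and it acts on m5C in RNA as well. In mouse cells 5mC lies mainly at CpG dinucleotides, and CpG islands are mostly free of it. MeDIP signal rises with the number of methylated CpGs in a fragment and with the number of genome copies that contribute reads, so it is a relative level and not a percentage of methylated molecules. A library averages over many cells, and fewer cells with methylation cannot be told apart from less methylation per cell. Neither the disruption of Tet2 nor the stem-cell identity of the lines can be checked against marker expression in this assay.

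Libraries held from 8.92 to 14.2 M reads in Tet2 KO and from 11.5 to 15.4 M in WT. Values are in RPKM, reads per window scaled to its length and to library size. In each genotype replicates 2 and 3 differed by no more than sampling noise over the whole list and were counted as 1 sample, so that n = 2 in each mean ± SD. The labels do not say whether replicates came from separate cultures. Each mean ± SD was taken over replicate 1 and the average of replicates 2 and 3. The errors therefore cover only part of the spread between these libraries and leave out that between replicates 2 and 3. The KO and WT libraries did not overlap in 354 of the 354 windows of chromosome 15, as in 100% of the whole list. The weakest change on the chromosome was a log2 fold change of 0.69 at chr15:67734301-67734400 (126 RPKM in KO and 78.1 in WT), and windows just outside the threshold are not held in the list.

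The sequences that carry the changes are given from the GRCm38 (mm10) reference, plus strand, 5′ to 3′, with each CpG in capitals because CpG is the main site of methylation. The first 4 are the middle windows of the regions with the largest change in each direction, inside the interval from 30 to 40 Mb and in the rest of the chromosome. The change was ranked by log2 fold change with a pseudocount of 0.1 RPKM. The last 2 were picked after their values were seen, as the windows whose 25-base words recur in the most listed regions of chromosome 15.
Higher, interval, chr15:35387501-35387600: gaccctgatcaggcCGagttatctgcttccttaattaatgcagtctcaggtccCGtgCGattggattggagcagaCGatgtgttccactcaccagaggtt
Higher, rest of chromosome, chr15:43387701-43387800: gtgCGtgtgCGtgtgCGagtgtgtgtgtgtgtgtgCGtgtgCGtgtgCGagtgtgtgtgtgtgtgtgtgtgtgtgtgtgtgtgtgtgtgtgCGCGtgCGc
Lower, interval, chr15:37203101-37203200: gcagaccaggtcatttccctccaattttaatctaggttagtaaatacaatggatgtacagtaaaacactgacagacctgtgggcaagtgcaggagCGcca
Lower, rest of chromosome, chr15:97054701-97054800: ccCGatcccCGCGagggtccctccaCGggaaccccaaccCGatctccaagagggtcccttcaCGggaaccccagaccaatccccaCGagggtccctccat
Shared by lower regions, chr15:91992601-91992700: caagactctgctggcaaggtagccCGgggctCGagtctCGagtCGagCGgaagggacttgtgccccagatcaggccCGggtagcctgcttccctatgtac
Shared mostly by higher regions, chr15:39714201-39714300: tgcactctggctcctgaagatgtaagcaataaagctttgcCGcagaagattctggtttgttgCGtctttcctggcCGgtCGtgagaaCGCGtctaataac

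The sequences differ in CpG content and in how often they occur in the genome. The windows at 37203101 and 97054701 lie in single-copy sequence by their middle 32 bases, with 1 and 7 CpGs, whereas the middle bases of the window at 91992601 occur 2870 times. The window at 43387701 is a run of CG and TG dinucleotides with 9 CpGs and 4 copies. Reads of a window with several copies could have come from any of them, since an aligner places such a read at a single best position.

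The higher windows lay closest together between 30 and 40 Mb, an interval picked with earlier results of these data known. Its counts and shares are therefore a description. That interval from 30 to 40 Mb, 9.61% of the chromosome, held 141 of the 354 windows (39.8%), of which 116 were higher and 25 lower in Tet2 KO. The rest of the chromosome held 111 higher and 102 lower windows. Thus 82.3% of the listed windows were higher in the interval and 52.1% in the rest. The contrast was much smaller in single-copy windows, where 10 of 64 were lower in the interval (15.6%) and 13 of 56 in the rest (23.2%), against 17.7% and 47.9% of all listed windows. Merging adjoining windows of the same direction gave 45 higher and 7 lower regions in the interval and 43 higher and 42 lower regions in the rest. Windows of the list made up 0.143% of all windows of the interval and 0.023% of those in the rest.

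**Figure D1:**
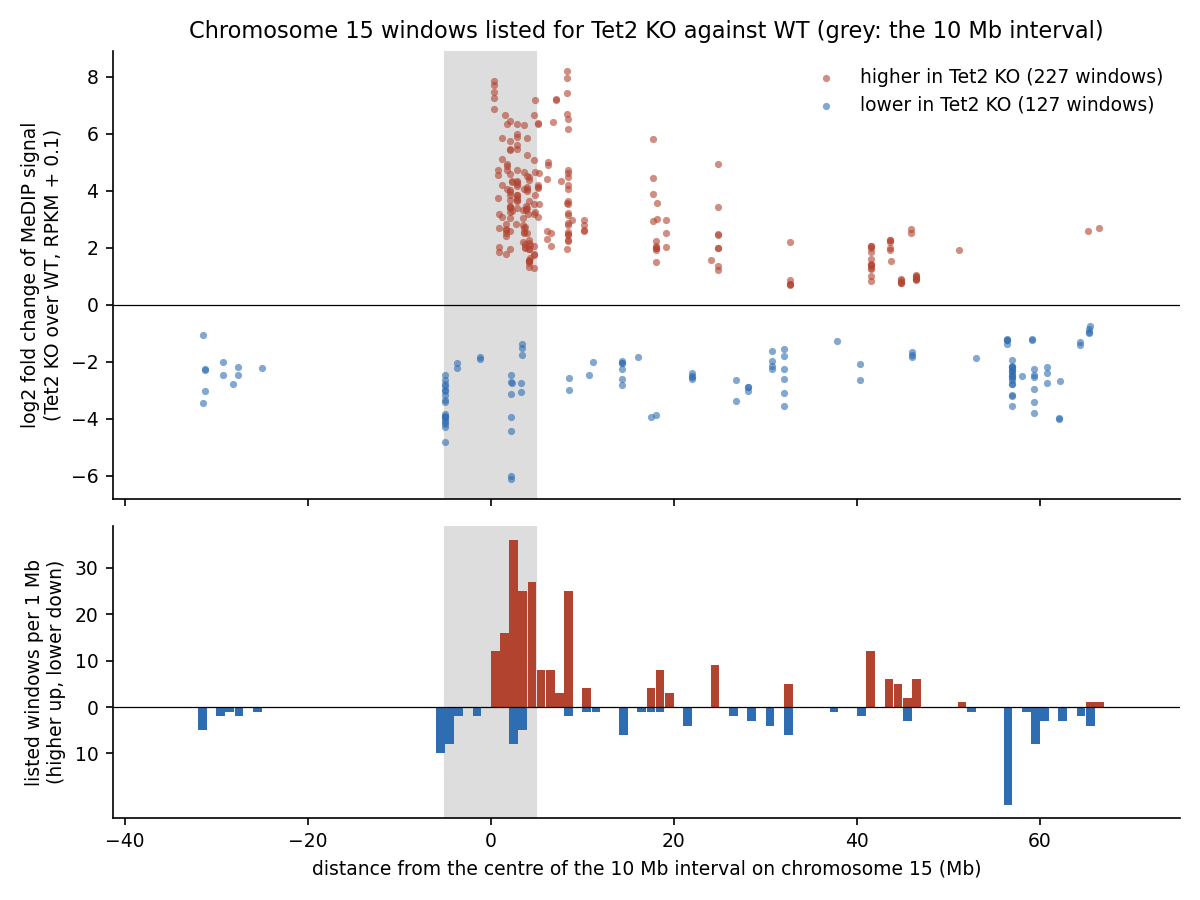
Top, log2 fold change of MeDIP signal (Tet2 KO over WT, RPKM + 0.1) of each of the 354 windows against distance in Mb from the centre of the 10 Mb interval, which is shaded grey, with higher windows in red and lower windows in blue; bottom, windows per 1 Mb, higher up and lower down. The 21 windows upstream of the interval are all lower, and the higher windows start inside it and run on past its downstream edge.

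The edges of the interval were not those of the pattern. Below 30 Mb the 21 listed windows were lower in KO, and the 12 windows of the interval before 35387301 were lower too. Of the 21 windows 1 was single copy, and their median was 2236 copies. The sequence-sharing group of lower regions described below held 7 of the 9 regions below 30 Mb and 2 of the 3 from there to 35387301. The position of their reads is therefore uncertain. From there to 40 Mb, 116 of 129 windows were higher (89.9%). The higher regions then went on past 40 Mb with a gap of 271 kb across that edge. With gaps of at most 2 Mb they formed a run from 35387301 to 45197000, 9.81 Mb long, in which 164 of 179 windows were higher (91.6%) in 67 higher and 5 lower regions. This run, drawn after the values were seen, held 72.2% of the higher windows of the chromosome. The median distance between its neighbouring higher regions was 62.6 kb and the largest was 1317 kb, and the next higher region started 7.54 Mb after its end. Higher windows covered 0.167% of its length.

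The interval stood first in the genome for higher windows. It was picked with earlier results of these data known, so this rank is a description and no independent result. Of 286 bins of 10 Mb, with a median of 3 higher windows each, the bin of chromosome 15 from 30 to 40 Mb held 116. The next was 130 to 140 Mb of chromosome 6 with 99, followed by 90 to 100 Mb of chromosome 8 with 80. The neighbouring bin of chromosome 15 from 40 to 50 Mb held 48. Among 21 chromosomes, chromosome 15 had the highest share of higher windows (64.1%), and chromosome 11 came next at 61.4%. By density, at 2.18 higher windows per Mb, it stood in rank 3.

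**Figure D2:**
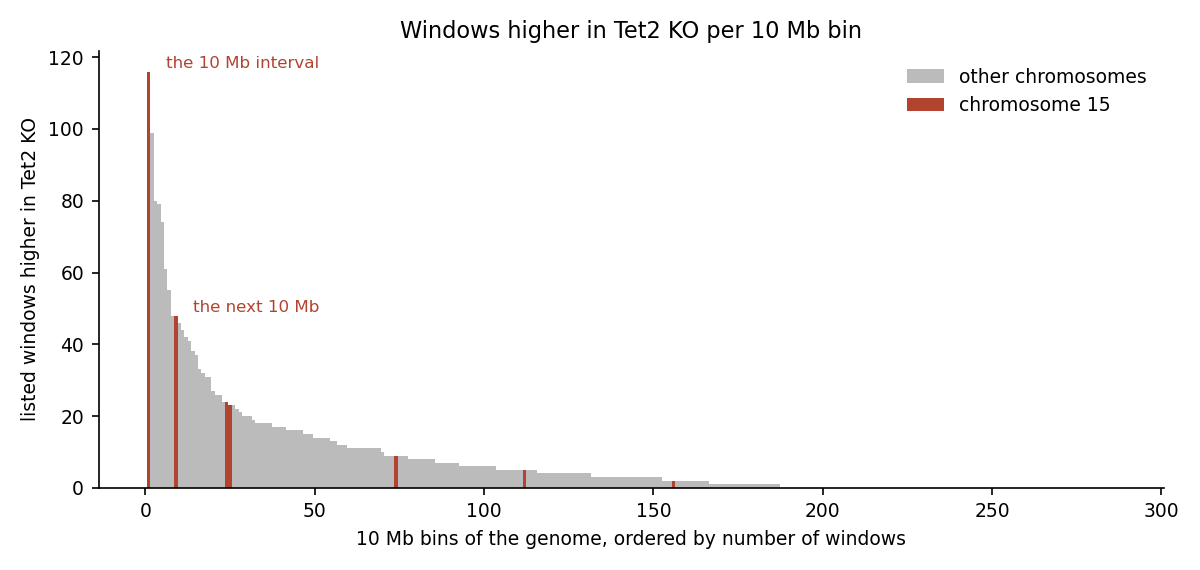
Number of listed windows higher in Tet2 KO in each 10 Mb bin of the genome, with bins ordered from the most to the fewest windows and chromosome 15 coloured. The tallest bar, with 116 windows, is the bin of chromosome 15 from 30 to 40 Mb, and the median bin holds 3.

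Inside the interval the higher windows came from a near-empty WT signal. Their median was 16.8, 17.4 and 16.9 RPKM in KO replicates 1 to 3, against 0.87, 0.75 and 1.3 RPKM in WT replicates 1 to 3. All 3 KO medians were above all 3 WT medians by more than 10 RPKM. Of the 116 windows, 43, 37 and 30 had no read in WT replicates 1, 2 and 3, and 96 (82.8%) averaged under 5 RPKM in WT. The median log2 fold change was 3.67 (3.56, 3.56 and 3.61 for each KO library over the WT mean), or 3.32 when windows without a WT read were set at the bound that a floor of 3 reads per library gives.

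The higher windows elsewhere on the chromosome differed in level between 40 to 50 Mb and the part beyond. The medians of the 48 higher windows from 40 to 50 Mb were 15.7, 16.0 and 13.8 RPKM in KO and 0.87, 1.51 and 0.65 RPKM in WT, with a median log2 fold change of 3.86. Beyond 50 Mb the 63 higher windows had medians of 40.4, 35.5 and 37.4 RPKM in KO and 11.3, 9.03 and 9.77 RPKM in WT, and their median log2 fold change was 1.94. Windows that averaged under 5 RPKM in WT were 137 of 164 in the run (83.5%) and 17 of 63 beyond 50 Mb (27.0%). Taken as 1 set, the 111 higher windows outside the interval had a median log2 fold change of 2.50 (2.27 at the bound), lower than in the interval. In single-copy windows the order turned, with medians of 3.32 in the interval and 3.52 in the rest, where 22 of the 43 single-copy higher windows lay between 40 and 50 Mb.

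No window of chromosome 15 lost its signal altogether, while 23 windows had no read in any WT library. Of these 23 windows, in 14 regions, 12 lay in the interval, 11 between 40 and 50 Mb and 0 beyond. They held from 26 to 110 reads summed over the KO libraries, and 13 of them were single copy. Against the floor they were at least 3.12-fold to at least 13.2-fold higher in KO. Windows without a read in any KO library numbered 0 on chromosome 15, 2517 on the other chromosomes and 799 on the other chromosomes without chromosome Y.

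Lower windows of the interval had medians of 4.48, 4.26 and 7.76 RPKM in KO and 31.2, 21.8 and 22.8 RPKM in WT. Those of the rest of the chromosome had medians of 4.48, 3.55 and 3.53 RPKM in KO and 23.9, 20.3 and 18.9 RPKM in WT. All KO medians were below all WT medians in both sets. The median log2 fold changes were -2.75 and -2.47, and the former varied more between the KO libraries (-3.39, -2.89 and -2.45).

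**Figure D3:**
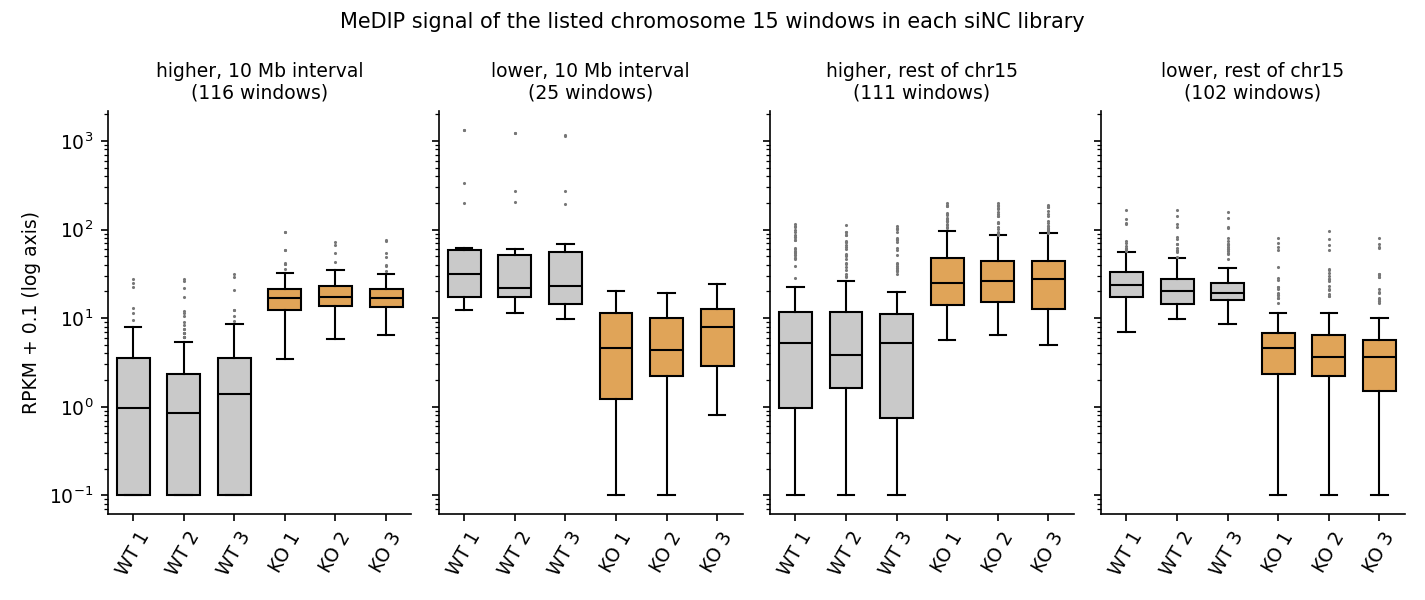
RPKM + 0.1 on a log axis of each listed window of chromosome 15 in the 3 WT and 3 Tet2 KO siNC libraries, in 4 panels for higher and lower windows of the interval and of the rest of the chromosome; boxes show the median and quartiles, whiskers reach the last value not drawn as a point, and points are outlying windows. Medians of the 116 higher windows of the interval lie between 0.75 and 1.3 RPKM in WT and between 16.8 and 17.4 RPKM in KO.

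By log2 fold change with a pseudocount of 0.1 RPKM, the largest gain of the interval was at its first higher region, chr15:35387301-35387800. This region lies in an intron of Vps13b, which encodes a bridge-like lipid transfer protein. Its 5 windows, with 13 CpGs in all, averaged 18.2, 18.9 and 16.2 RPKM in KO replicates 1 to 3 and had 0 reads in each WT library. The KO mean was 17.9 ± 0.42 RPKM (SD, n = 2), at least 39.5-fold above the floor of 3 reads per WT library. The middle window of this region is the first sequence shown above, with 4 CpGs and 36 copies, and it read 22.4, 25.6 and 21.9 RPKM in KO. Over the whole gene, 12 higher windows in 4 regions averaged 15.8, 19.6 and 18.6 RPKM in KO and 1.01, 2.13 and 1.52 RPKM in WT. All KO values of Vps13b lay above all WT values.

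Other gains from 0 WT reads in the interval were single windows. In an intron of Snx31, a sorting nexin gene, the window at chr15:36534801-36534900 had 3.36, 17.8 and 9.17 RPKM in KO, at least 4.92-fold higher and at least 3.09-fold without KO replicate 2, with a wide spread between KO libraries. In an intron of Dcstamp, which is needed for osteoclast fusion, the window at chr15:39754001-39754100 had 11.2, 5.69 and 13.4 RPKM in KO, at least 4.44-fold higher. The window at chr15:37072901-37073000, outside genes and 65128 bp from the start of Zfp706, had 6.72, 8.53 and 10.6 RPKM, at least 3.96-fold higher.

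A pair of neighbouring gains lay outside genes near Rrm2b. Region chr15:37878601-37879100, with 5 windows and 18 CpGs, had 18.2, 17.9 and 14.4 RPKM in KO and 0, 0.75 and 0 RPKM in WT, which is 17.2 ± 1.42 against 0.19 ± 0.27 RPKM (SD, n = 2). Its neighbour chr15:37877601-37878400, the longest higher region of the interval with 8 windows and 32 CpGs, had 24.0, 19.2 and 24.1 RPKM in KO and 1.95, 0.19 and 1.55 RPKM in WT. The KO libraries were above the WT libraries in both regions, and the latter was 18.2-fold higher by the means of 3. The WT reads of the former, 0, 5 and 0, are too few for a fold: its log2 fold change was 5.60, 7.40 without WT replicate 2 and 5.15 without WT replicate 1 or 3. Windows of these regions occurred at a median of 67 and 58 copies in the genome.

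Within 1 kb of an annotated start the interval had 4 higher regions, at Baalc, at Grhl2 and at the noncoding genes Gm45924 and Gm49262. Baalc, a gene expressed in brain and in blood progenitors, had 4 higher windows at chr15:38933401-38933800, the nearest 109 bp from an annotated transcript start, where the antisense gene Gm49097 also lies. Their mean was 20.7, 21.0 and 18.7 RPKM in KO and 0.87, 0.94 and 0 RPKM in WT, a log2 fold change of 4.85. Grhl2, which encodes an epithelial transcription factor, had 3 higher windows 37 bp from an internal annotated start (18.3 RPKM in KO and 1.07 in WT, log2 fold change 3.98). The lincRNA gene Gm45924 had 4 windows near its start with 24.4 RPKM in KO and 5.29 in WT, and the 3 windows near the start of Gm49262 had 17.1 RPKM in KO and 2.76 in WT. Within 1 kb of a start lay 11.2% of the higher windows of the interval, against 4.18% of all its windows and 0.90% of the higher windows in the rest. Counted by region the contrast was smaller, with 4 of the 45 higher regions of the interval (8.9%) and 1 of the 43 in the rest (2.3%).

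In the other protein-coding genes of the interval the gains were intronic, and 1 window overlapped the end of an exon of the lincRNA gene Gm49263 (8.14 RPKM in KO and 0 in WT). Spag1, which takes part in dynein assembly, had 4 windows with 13.5, 21.9 and 19.8 RPKM in KO and 0.87, 1.13 and 0.65 RPKM in WT (log2 fold change 4.23). Dpys, the dihydropyrimidinase gene, had 1 window with 10.3 RPKM in KO and 0.97 in WT, and Ncald, a neuronal calcium sensor gene, had 1 window with 12.1 and 1.62 RPKM. These genes shared low WT levels of under 2 RPKM. Rims2, a gene of the presynaptic active zone, had 2 windows with 20.4 RPKM in KO and 5.59 in WT, and the 3 windows of Dcstamp averaged 18.8 and 4.05 RPKM. Altogether 10 of the 55 protein-coding genes that overlap the interval held a listed window (18.2%), 9 of them a higher and 2 a lower window. Of the other 730 protein-coding genes of the chromosome 20 did (2.74%), 9 with a higher and 12 with a lower window. Listed windows were also denser in the interval (0.143% of its windows) than in the rest (0.023%). In a protein-coding gene lay 26.7% of the higher and 12% of the lower windows of the interval, against 55.3% of all its windows. In the rest the shares were 16.2% and 26.5%, against 37.8% of all windows.

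Past 40 Mb the gains with the largest log2 fold changes again started from 0 WT reads. Region chr15:43387601-43387900, outside genes and 89329 bp from the start of Emc2, had 20.2, 22.5 and 29.2 RPKM in KO, at least 32.8-fold higher, and its middle window is the CG and TG run shown above. Region chr15:42090901-42091100, outside genes, had 15.7, 16.7 and 11.99 RPKM in KO, at least 13.1-fold higher. Smaller ones were chr15:43387401-43387500 (13.5, 7.82 and 9.88 RPKM in KO), an intronic window of Oxr1, a gene of resistance to oxidative damage (7.85, 9.95 and 7.76 RPKM), and chr15:43463801-43464000 in Gm10373 (8.41, 8.53 and 7.41 RPKM). The lincRNA gene Gm10373 had the most listed windows of any gene on the chromosome, 18, with 19.95 RPKM in KO and 2.42 in WT. Single intronic windows of Zfpm2, a cofactor of GATA factors, and of Angpt1, a ligand of the Tie2 receptor, had 0.29 RPKM in WT and 8.14 and 7.91 RPKM in KO.

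Gains beyond 50 Mb mostly lay where WT cells already had signal. The longest higher region of the chromosome, chr15:76564901-76565900, outside genes near Adck5, had 73.1, 64.6 and 65.1 RPKM in KO and 29.5, 22.4 and 21.3 RPKM in WT, 2.77-fold higher in KO. Exonic gains were found in Elfn2 (6 windows in coding sequence, also antisense to 1700041B01Rik, 39.5 RPKM in KO and 9.40 in WT), in Adsl, an enzyme gene of purine synthesis (14.7 and 2.36 RPKM), in Krt86, a hair keratin gene (12.9 and 1.91 RPKM) and in an untranslated region of Atf1, a gene of the CREB family (12.3 and 1.98 RPKM). None of the 45 higher regions of the interval lay in coding sequence, compared with 3 of the 43 in the rest.

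The deepest loss lay inside the interval, among the gains. Region chr15:37202801-37203500, outside genes and 29536 bp from the start of Grhl2, held 7 windows with 473, 429 and 411 RPKM in WT and 8.17, 10.9 and 14.8 RPKM in KO. Its mean was 446 ± 37.8 RPKM in WT and 10.5 ± 3.31 RPKM in KO (SD, n = 2), 38.8-fold lower in KO by the means of 3. At its peak WT libraries reached from 1157 to 1335 RPKM. The region has 11 CpGs over 7 windows, 1 of them in the middle window shown above, and each of its windows occurs from 1 to 3 times in the reference. Copy number in the cells of either line was not tested.

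The other losses of the interval started from lower WT levels. Region chr15:30042601-30043400, outside genes, had 17.5, 17.6 and 12.9 RPKM in WT and 0.84, 1.42 and 2.73 RPKM in KO, and its windows occurred at a median of 3129.5 copies. In an intron of Ankrd33b the region chr15:31317301-31317500 had 61.2, 57.9 and 66.8 RPKM in WT and 19.6, 8.53 and 14.1 RPKM in KO. Region chr15:38279701-38279900, 18939 bp from the start of Klf10, had 16.9, 15.1 and 14.0 RPKM in WT and 1.68, 2.48 and 1.76 RPKM in KO. All 3 KO libraries lay below all 3 WT libraries in each of these regions. In Grhl2 an intronic window at chr15:37276501-37276600 was lower, at 12.1, 15.8 and 17.6 RPKM in WT and 2.24, 2.13 and 2.12 RPKM in KO, so that the gene held changes in both directions.

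Outside the interval the largest log2 fold change among losses (-3.99 with a pseudocount of 0.1 RPKM) was in an intron of Slc38a4, an imprinted amino acid transporter gene. With 1 RPKM it was -2.76, behind the regions at 29983701 (-3.02), 52491801 (-2.97) and 53087301 (-2.91). Region chr15:97054701-97054900, 1056 bp from the gene's start and the fourth sequence shown above, had 7.80, 9.78 and 9.45 RPKM in WT and 0, 0.71 and 0.71 RPKM in KO, where no library had more than 2 reads. Peg13, an imprinted noncoding RNA gene within Trappc9, had 1 window with 52.0, 42.9 and 46.9 RPKM in WT and 22.4, 20.6 and 15.5 RPKM in KO. Of 6 imprinted genes looked up on the chromosome, Slc38a4, Trappc9 and Peg13 held a window, lower in each case. Trappc9 and Peg13 hold the same window, so these are 2 loci, beside 2.74% of the protein-coding genes outside the interval with a window. There was no listed window in the 9 genes of the Hoxc cluster, the 15 of the Ly6 family, the 5 cadherins or the 2 of the Myc locus, and 1 of 23 type II keratins, Krt86, held one.

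The longest loss outside the interval, chr15:29983701-29984700, lay outside genes and held 10 windows with 59 CpGs, at 21.9, 21.1 and 16.9 RPKM in WT and 2.02, 1.21 and 1.55 RPKM in KO. Single windows at chr15:52491801-52491900 near Slc30a8, in Ext1, a heparan sulfate synthesis gene, and in Ghr, the growth hormone receptor gene, went from between 8.47 and 16.3 RPKM in the WT libraries to between 0 and 2.84 RPKM in KO. Ext1 also held 2 higher windows, so that the mean over its 3 windows was 7.29 RPKM in KO and 4.62 in WT. The 6 windows of Adamts20, a metalloprotease gene, averaged 19.1 RPKM in WT and 2.64 in KO, and the 2 windows of Emc2, a subunit gene of an endoplasmic reticulum membrane complex, averaged 14.3 and 2.02 RPKM. At higher WT levels the changes were smaller. Slc11a2, the gene of an iron transporter, had 110 RPKM in WT and 65.4 in KO, Slc2a13, a myo-inositol transporter gene, had 57.6 and 24.1 RPKM, and the 3 windows shared by the overlapping genes Higd1c and Methig1 had 138 and 72.0 RPKM.

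**Figure D4:**
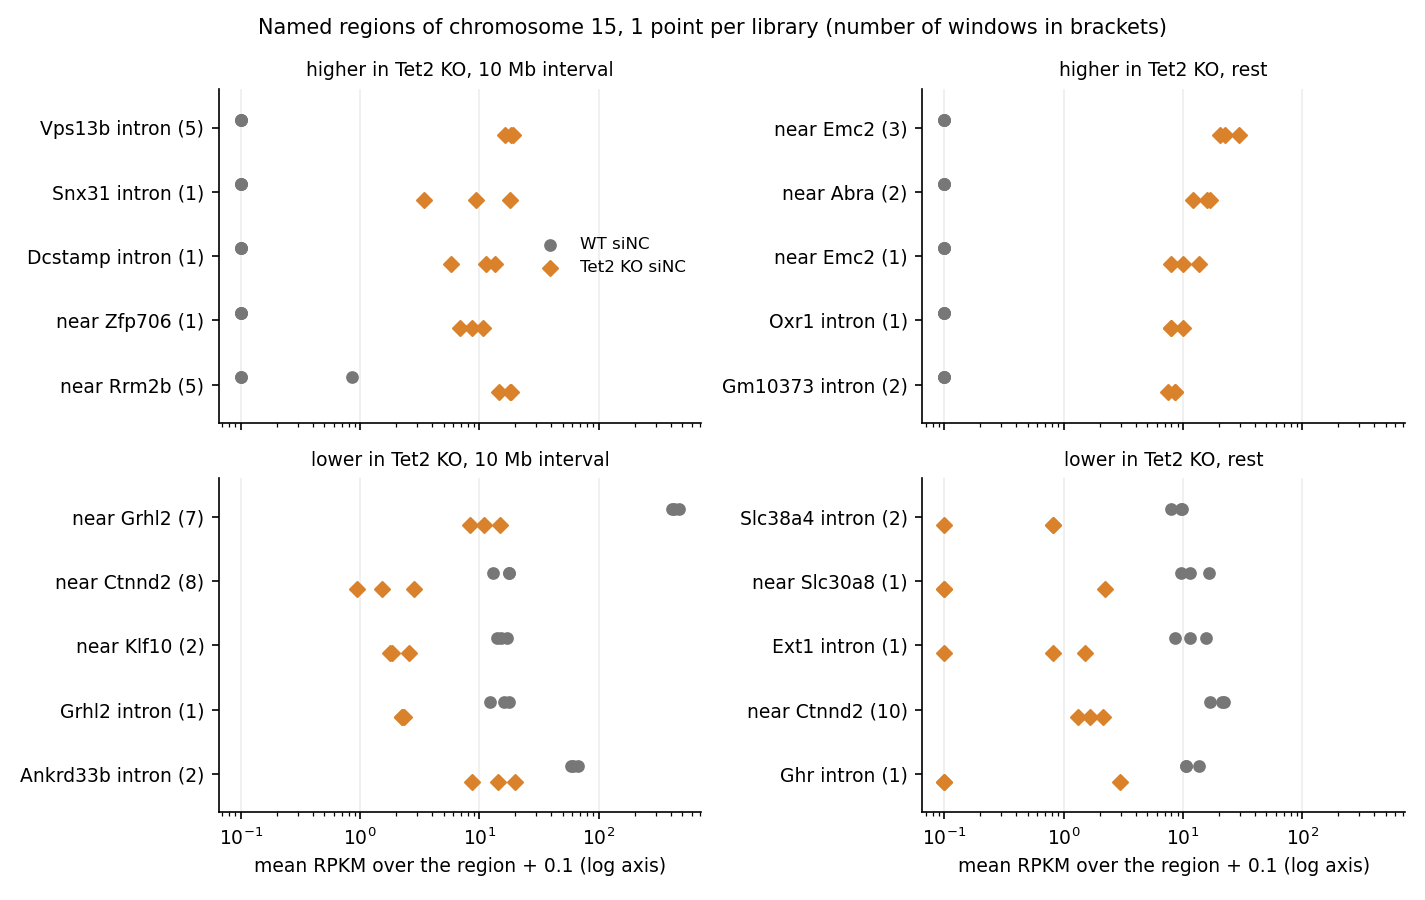
Mean RPKM + 0.1 on a log axis over each named region, with 1 point per WT and Tet2 KO siNC library, in 4 panels for higher and lower regions of the interval and of the rest of the chromosome, and the number of windows in brackets. WT points of the higher regions sit mostly at 0 RPKM, and the lower region of 7 windows in the interval has WT points from 411 to 473 RPKM.

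Sequence features of higher and lower windows of both locations are given as a description. Listing needed captured reads, and MeDIP signal rises with methylated CpGs. More CpG or GC than in all windows is therefore no result about the members. Windows without a CpG were 50.9% of all windows of the interval and 0% of its listed windows. Listed windows of every set were richer in CpG than the chromosome, with medians from 3 to 6 CpGs per window against 0 for all windows. GC content was 50% at the median for higher windows of the interval and 52% for higher windows of the rest, and 60% and 62.5% for the corresponding lower windows, against 42% for all windows. Within the run of higher regions the medians were 50% for higher and 52% for lower windows. In the rest of the chromosome 91.2% of the lower windows were mostly repeat-masked and 12.7% were single copy. Of the higher windows of the rest 67.6% were mostly masked and 38.7% single copy. Inside the interval 61.2% of the higher and 60% of the lower windows were mostly masked, and 46.6% and 40% were single copy. Counted by region these shares were 57.8% and 42.9% masked and 42.2% and 28.6% single copy, with 7 of the 25 lower windows in the low-copy region at 37202801. Of all windows of the interval 29.8% were mostly masked, with masking as marked by lower-case bases in the reference for 50% or more of a window.

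Most of the lower regions turned out to share sequence with each other. Regions were joined when they had a 25-base word in common on either strand, simple repeats left out, a grouping made after the directions were known. The largest group had 29 regions with 87 windows, and 29 of the 29 were lower. They made up 59.2% of the 49 lower regions of the chromosome, and 2 of them lay in the interval and 7 below 30 Mb. In these regions the mean signal ran from 12.9 to 25.6 RPKM in WT and from 1.38 to 6.99 RPKM in KO, with a median log2 fold change of -2.39 and a median GC content of 63%. Their windows occurred at a median of 2248 copies in the genome. The window at chr15:91992601-91992700, the fifth sequence shown above, shared 25-base words with 23 regions of the group, and had 13.9, 12.8 and 15.0 RPKM in WT and 2.24, 2.13 and 0 RPKM in KO. Since reads of such windows could have come from any copy, the 29 regions are not 29 separate observations.

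A second group was mostly higher. It had 27 regions with 88 windows, 24 higher and 3 lower, of which 12 lay in the interval, and it made up 27.3% of the 88 higher regions. Its windows had a median of 105.5 copies and a median GC content of 50%, and the median log2 fold change of the group was 2.64. The window at chr15:39714201-39714300, the sixth sequence shown above, shared words with 14 higher and 2 lower regions of the group and had 40.4, 31.3 and 33.9 RPKM in KO and 13.01, 17.3 and 12.4 RPKM in WT. In neither group were 64 higher and 17 lower regions. The median copy number over a region's windows was 1000 or more in 1 of the 45 higher and 2 of the 7 lower regions of the interval, and in 1 of the 43 higher and 22 of the 42 lower regions of the rest.

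The relative methylation score, a fraction that corrects the signal for CpG density, had the direction of the RPKM in 354 of 354 windows. For the higher windows of the interval its median was 0.442 in KO and 0.162 in WT, and for the lower windows 0.307 and 0.443. It is derived from the same reads and is not a separate measurement. In a refit of the whole list with edgeR's quasi-likelihood test, 227 windows of the chromosome were higher and 127 lower, with adjusted p-values of at most 1.46e-07, against 16.9% higher and 83.1% lower in the whole list. Because the list was selected on these libraries, nothing about the members is read from that test. With library sizes normalized on the listed windows themselves (TMM), which moved the median of all listed windows by 1.87 on the log2 scale, 27 of the lower windows turned to higher, those whose change was weaker than this shift. Relative to the median of the list under TMM, lower windows stood at -0.17 in the interval and at 0.12 in the rest, and higher windows at 6.18 and 5.08.

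Knockdown of Nsun2, whose product installs m5C on RNA, was compared with siNC in Tet2 KO cells in a table that the selection did not use, although its controls are the KO libraries above. Of its 244 windows 9 lay on chromosome 15, of which 3 were higher and 6 lower with siNsun2, all past adjusted p = 7.40e-12 or below by the quasi-likelihood refit, against 32.4% higher and 67.6% lower in the whole table. That table is itself a list of selected windows. In coding sequence of Odf1, a sperm outer dense fibre gene at chr15:38226401-38226600, the signal was 85.7, 75.4 and 81.8 RPKM with siNC and 41.4, 42.5 and 38.6 RPKM with siNsun2. Region chr15:75086601-75086900, outside genes, was higher with siNsun2 (179, 172 and 167 RPKM) than with siNC (126.3, 101.4 and 106.5 RPKM). In WT cells the siNsun2 list had 31 windows in all and 0 on chromosome 15.

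Of the 9 windows 4, in 2 regions beyond 50 Mb, were in the Tet2 KO list as higher, beside 32 of 244 in the whole siNsun2 table (13.1%). Both comparisons use the Tet2 KO siNC libraries, high values of which raise the first and lower the second, so the count is no result and the values are only set side by side. Near Apobec3, at chr15:79872101-79872300, siNC libraries had 103, 103 and 107 RPKM in WT and 184, 183 and 182 RPKM in Tet2 KO, and siNsun2 libraries of Tet2 KO had 105, 123 and 116 RPKM. Near Rbx1, at chr15:81494601-81494800, the values were 111, 85.8 and 97.045 RPKM, then 193, 192 and 182 RPKM, then 118, 119 and 117 RPKM. The log2 fold changes were 0.81 and 0.94 for Tet2 KO over WT and -0.67 and -0.68 for siNsun2 over siNC.

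Knockout of Pspc1, an RNA-binding protein of paraspeckles, was measured in libraries of their own. On that list of 307 windows, 10 lay on chromosome 15, 0 of them in the interval, with 1 higher and 9 lower in Pspc1 KO (quasi-likelihood adjusted p of at most 4.88e-07, in a list selected on the same libraries), against 18.9% higher and 81.1% lower in the whole table. Of the 10 windows 4 were also in the Tet2 KO list, lower in both knockouts (40%), beside 159 of the 307 in the whole table (51.8%), so this share was not above that of the table. At the Slc38a4 region chr15:97054701-97054900 the signal was 29.5, 24.4 and 32.5 RPKM in WT and 12.4, 12.7 and 10.4 RPKM in Pspc1 KO (log2 fold change -1.27), with input libraries at no more than 1.90 RPKM in the mean of the 2 windows. At chr15:99380901-99381100, outside genes near Fmnl3, a formin gene, it was 81.5, 85.9 and 81.5 RPKM in WT and 55.8, 53.2 and 55.6 RPKM in Pspc1 KO (-0.60). The Tet2 KO comparison gave 44.7, 53.1 and 64.8 RPKM in WT and 17.4, 26.3 and 19.0 RPKM in KO at the latter (-1.37). No KO library overlapped its WT libraries at either region. The WT libraries of the Tet2 and the Pspc1 experiment differed in level. They averaged 9.01 and 28.8 RPKM at the Slc38a4 region and 54.2 and 83.0 RPKM at the region near Fmnl3. The reason was not tested, and levels were not compared between the experiments.

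**Figure D5:**
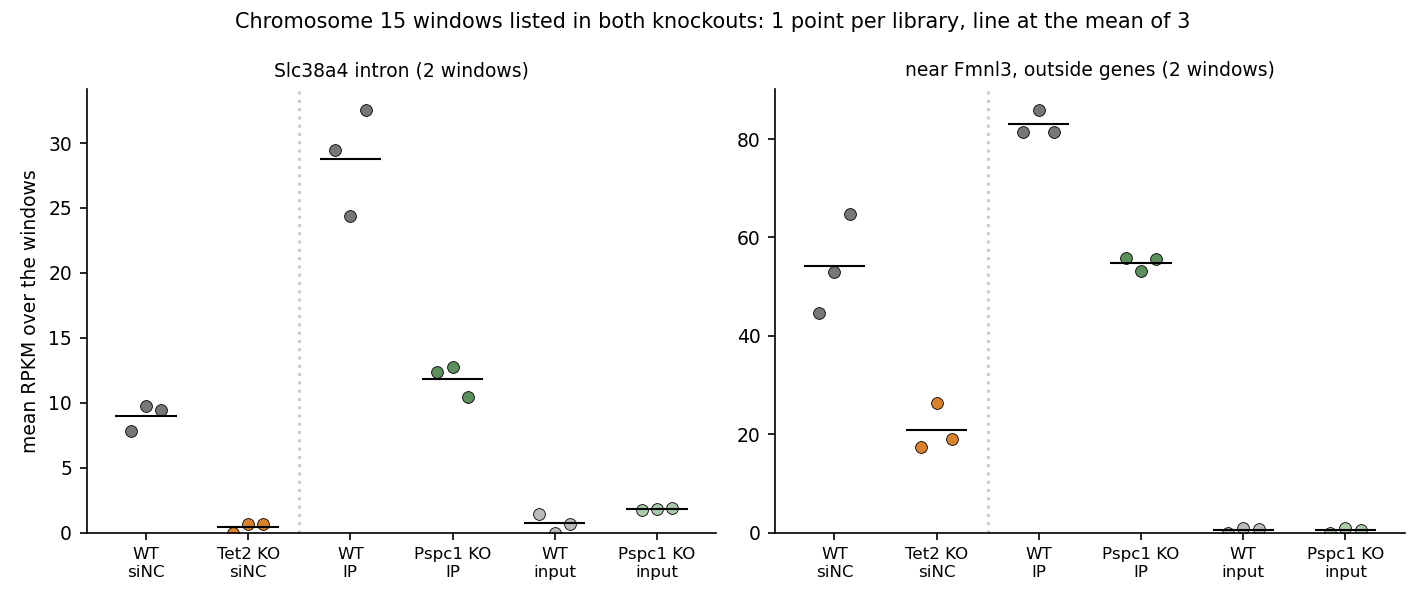
Mean RPKM over the windows listed in both knockouts, near Slc38a4 and near Fmnl3, with 1 point per library and a line at the mean of 3, for the Tet2 and the Pspc1 experiment with its inputs. KO libraries lie below their WT libraries in both experiments, and inputs of the Slc38a4 windows average no more than 1.90 RPKM.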

How the data were processed

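MeDIP-seq libraries of 24 samples in 8 groups of 3 were grouped by their labels, and the comparison described used 6 of them (Tet2 KO siNC and WT siNC). The authors trimmed reads with Trimmomatic 0.39, aligned them to mm10 with Bowtie2 2.4.1, removed duplicates with Picard and compared groups in windows of 100 bp with MEDIPS and edgeR, keeping windows with at least 10 reads over the samples and a Bonferroni-adjusted p-value under 0.1, with no copy-number correction. Tool names and versions are per the submitters' processing notes and the study's methods.

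The deposited counts are raw, 1 number for each window in each library. RPKM was made by the authors from these counts, window length and library size. The relative methylation score is a fraction from 0 to 1 that the authors computed with MEDIPS from CpG density. The authors' group means, fold changes and p-values were not used, and 0 columns belonged to other samples.

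Windows on chromosome 15 were kept, with direction from the means of RPKM. The members and gene lists were chosen with earlier results of these data known. Adjoining windows of the same direction were merged. Named regions were the 5 with the largest absolute change in each direction and location, with at least 30 reads per window and separate libraries, plus the longest; genes were the 25 with the most windows, and fixed gene lists. Log2 fold changes used a pseudocount of 0.1 RPKM, which sets the values of windows near 0 reads, and such windows are therefore given by their bound. The floor was 3 reads per library and covers counting error only. Library totals came from counts and RPKM. Genes, masking and copies of the middle 32 bases came from GRCm38 with GENCODE annotation.

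All listed windows were refitted with edgeR 4.0.16 (quasi-likelihood, group only, recovered totals, Benjamini-Hochberg at 0.05) in R 4.3.3, with DESeq2 1.42.0 as an alternative; the procedure was tested on simulated data. Python 3.11.15, pandas 2.3.3, numpy 2.4.6, scipy 1.17.1 and matplotlib 3.10.9 were used. Replicate 2 against 3 gave a chi-square of 0.97 per degree of freedom in Tet2 KO and 1.00 in WT over windows with 20 or more reads, and the other pairs 1.26 to 1.51. On chromosome 15 alone replicate 2 against 3 gave 0.81 in Tet2 KO and 0.82 in WT, and the other pairs 0.75 to 1.37. Same-numbered libraries of the siNsun2 comparison in Tet2 KO deviated together (correlations of 0.18, 0.13 and 0.12), a pairing seen in the data, since no label gives the meaning of these numbers.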

Additional observations from a re-analysis of the deposited data

How the results depend on the processing

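The refit called all 354 windows, 227 higher and 127 lower, also with the exact test, with DESeq2 on the recovered totals, with replicates 2 and 3 added together and without each library in turn. The windows of each list were selected on its own libraries, so that the counts of calls say nothing of stability. Replicate numbers did not pair the Tet2 KO and WT libraries (correlations of 0.03, -0.01 and 0.00), and the fit with the replicate block gave 227 higher and 127 lower windows. The block also left the 9 windows of the siNsun2 list and the 10 of the Pspc1 list called, as did DESeq2 and leaving out each library (9 to 9 and 10 to 10). Normalizing on the listed windows themselves reduced the lower windows to 38 (TMM) or 41 (DESeq2 size factors) and raised the higher ones to 242 or 241, which assumes that the listed windows do not change on balance; the cause was not tested further. With at least 50 reads, 309 windows remained, 186 higher and 123 lower.

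In single-copy windows the share of lower windows was 15.6% in the interval and 23.2% in the rest, a smaller contrast than 17.7% and 47.9%, and the share of windows in the interval was 53.3%. An interval from 31 to 39 Mb held 29.9% of the windows. In the run of higher regions, an interval chosen after seeing the data, 8.38% were lower. The reads of the 25 lower windows of the interval, summed per library size, were 20.03 times as many in WT as in KO, and 4.68 times without the deepest region of 7 windows, also added later, so that this ratio describes mostly that region.

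Median log2 fold changes moved as follows. For lower windows of the rest, higher windows of the interval and higher windows of the rest, in that order, they were -2.20, 2.90 and 2.24 with a pseudocount of 1 RPKM, -2.34, 3.31 and 2.39 with 0.5 RPKM, -2.45, 3.38 and 2.20 with at least 50 reads, -1.87, 3.32 and 3.52 in single-copy windows, which turns the order of the higher medians, and -2.36, 3.71 and 2.31 with an interval from 29 to 41 Mb. With 31 to 39 Mb the first was -2.50 and the second 3.87. With TMM they were -0.58, 5.47 and 4.37, and lower windows of the interval -0.87. Without each library in turn, medians ran from -2.92 to -2.60 and from -2.51 to -2.36 for lower windows of the interval and the rest, and from 3.48 to 3.72 and from 2.45 to 2.54 for higher windows. Low counts limit the change of single windows, and multi-copy sequence limits their position. That the list holds selected windows only leaves the unlisted windows of the interval undescribed.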

Other observations

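Leaving out chromosome Y, 81.4% of the listed windows of the other chromosomes were lower in Tet2 KO and 8.66% of these lower windows had no read in any KO library, compared with 0 of the 127 lower windows of chromosome 15. Among the higher windows, 6.87% on the other chromosomes without Y and 10.1% on chromosome 15 had no read in any WT library.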
